A study of Mus musculus with 2 samples.

Results

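Unannotated autosomal transcripts under 1 kb were examined in mouse embryonic fibroblasts (MEFs) with and without severe loss of DNA methylation. They are the entries of the deposited expression table that carry no gene symbol, have the status OK, lie on chromosomes 1 to 19 and span less than 1000 bp from start to end. There were 5405 of them among the 29126 entries of the table, or among 23075 entries with status OK, of which 8210 carried no symbol. They were 51 to 996 bp long, with a median of 243 bp. Messenger RNA had been sequenced strand-specifically in 1 library of Dnmt1+/+ and 1 library of Dnmt1-/- MEFs. The Dnmt1-/- cells carry the hypomorphic Dnmt1n allele on both chromosomes (Dnmt1n/n), both lines lack Trp53, and the strain is given as unknown. With 1 library per genotype there was no replicate check, so no test was made and every difference below describes these 2 libraries alone.

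When DNMT1 is lacking, dividing cells lose methyl groups from CpG sites across the genome, because this enzyme restores them on newly made DNA. Mouse chromosomes hold many processed pseudogenes, which are copies of spliced mRNAs that were reverse-transcribed and inserted elsewhere in the genome without their introns, and a transcript assembler can place reads on such copies as well as on unannotated exons, introns and intergenic DNA. RPKM divides the number of reads on a locus by its length in kilobases and by the size of the library, and the program used here divides by an effective length that shrinks faster than the locus itself once the locus nears the length of a read.

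The targeted gene was checked first. Dnmt1 was at 65.2 RPKM in the Dnmt1+/+ library and 14.5 RPKM in the Dnmt1-/- library. Of 8 fibroblast markers, 8 reached 1 RPKM in Dnmt1+/+ and 7 in Dnmt1-/-, where Thy1 was at 0.129 RPKM against 4.84. S100a4, at 290 and 1262 RPKM, and Pdgfrb, at 33.9 and 37.8, were higher in Dnmt1-/-. All others of the 8 were lower, with Col1a1 at 1448 and 898, Col1a2 at 1241 and 476 and Col3a1 at 332 and 175. Fn1 was at 664 and 235 and Vim at 2269 and 1873. Summed RPKM of the 8 markers was 6282 and 4957. None of 4 epithelial or 3 endothelial markers reached 1 RPKM in either library, and of 3 leukocyte markers Ptprc was listed at 0 in both, whereas Cd68 and Cd14 were at 0.596 and 1.51 RPKM in Dnmt1+/+ and at 3.63 and 3.23 RPKM in Dnmt1-/-. The part of these markers in the results below was not tested.

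Most of the signal lay on sequences of the following kind, so pairs of a short entry and the mRNA it matched are printed first. In each pair the upper line is the aligned part of the entry's genomic sequence in build mm9, read on the strand that matches the mRNA. The lower line is the matched stretch of the GENCODE transcript, and capitals mark the bases at which they differ. For Eef2 the aligned part is 65 bp of an entry of 69 bp.

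Cct7 copy, chr1:20811795-20811851, plus strand: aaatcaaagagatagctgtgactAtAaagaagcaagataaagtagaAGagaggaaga
Cct7 mRNA, positions 1021 to 1077: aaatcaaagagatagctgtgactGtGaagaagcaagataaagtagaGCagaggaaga
Rpl4 copy, chr9:110904045-110904099, minus strand: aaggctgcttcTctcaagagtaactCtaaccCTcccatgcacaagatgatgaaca
Rpl4 mRNA, positions 849 to 903: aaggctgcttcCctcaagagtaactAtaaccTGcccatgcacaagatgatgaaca
Eef2 copy, chr1:110275118-110275182, minus strand: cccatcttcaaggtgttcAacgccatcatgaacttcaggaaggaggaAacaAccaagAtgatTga
Eef2 mRNA, positions 982 to 1046: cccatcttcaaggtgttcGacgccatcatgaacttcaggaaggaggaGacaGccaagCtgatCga
Tuba3b copy, chr9:75223328-75223422, minus strand: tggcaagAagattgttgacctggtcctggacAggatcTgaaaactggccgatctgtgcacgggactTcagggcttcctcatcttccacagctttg
Tuba3b mRNA, positions 660 to 754: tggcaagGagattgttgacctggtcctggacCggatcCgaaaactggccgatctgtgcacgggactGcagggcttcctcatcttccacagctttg

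Each of these mRNA stretches crossed a boundary between exons of its gene. Counted from the first printed base, the boundary fell after base 43 of the Cct7 stretch, base 29 of Rpl4, base 12 of Eef2 and base 46 of Tuba3b, and the genomic copy ran through it without an intron. Over the printed bases the copies differed from the mRNA at 4 of 57, 4 of 55, 5 of 65 and 4 of 95.

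RPKM depended steeply on locus length. Among 455 entries of 50 to 74 bp the median RPKM was 4989 in Dnmt1+/+ and 5126 in Dnmt1-/-, and among 483 entries of 75 to 99 bp it was 730 and 653. It was 29.7 and 32.5 for 1203 entries of 100 to under 200 bp, 4.73 and 4.63 for 1177 entries of 200 to under 300 bp, 2.13 and 1.92 for 1257 entries of 300 to under 500 bp, and 1.81 and 1.65 for 830 entries of 500 to under 1000 bp. The median of 34 named autosomal entries of 300 to under 500 bp was 1.02 and 0.988 RPKM, and that of 66 named entries of 500 to under 1000 bp was 5.08 and 3.19 RPKM, and no named entry was under 100 bp.

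The read number behind these values could be recovered. At 208 lengths the RPKM values of short entries fell largely on multiples of 1 step. The step was set beside an effective length computed from fragments of 200 bp on average, with an SD of 80 bp and a shortest fragment of 48 bp. At 185 of the 208 lengths the product of both lay within 5% of its median, with an SD of 0.00724% among these 185. The fragment settings were chosen for the smallest such SD. The step is the RPKM of 1 read. In Dnmt1+/+ it was 1601 RPKM at 52 bp, 11.5 RPKM at 100 bp, 0.747 RPKM at 200 bp and 0.0708 RPKM at 500 bp, and in Dnmt1-/- it was 0.914 times as large at every length. RPKM divided by this step is called a read equivalent here. It came within 0.02 of a whole number for 73.95% of the Dnmt1+/+ and 76.2% of the Dnmt1-/- values above 0, and within that distance of a multiple of 0.5 for 85.7% and 87.5%. On this scale the length classes were far closer together, with medians of 24.5, 32, 13, 12, 17 and 40 read equivalents in Dnmt1+/+ from the shortest class to the longest, and of 24, 31, 14, 13, 17 and 40 in Dnmt1-/-. Over both libraries together an entry held a median of 37 read equivalents. An exact Poisson 95% interval runs from 4.80 to 18.4 reads for a count of 10 and from 81.4 to 122 reads for a count of 100. These intervals cover counting error only.

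**Figure D1:**
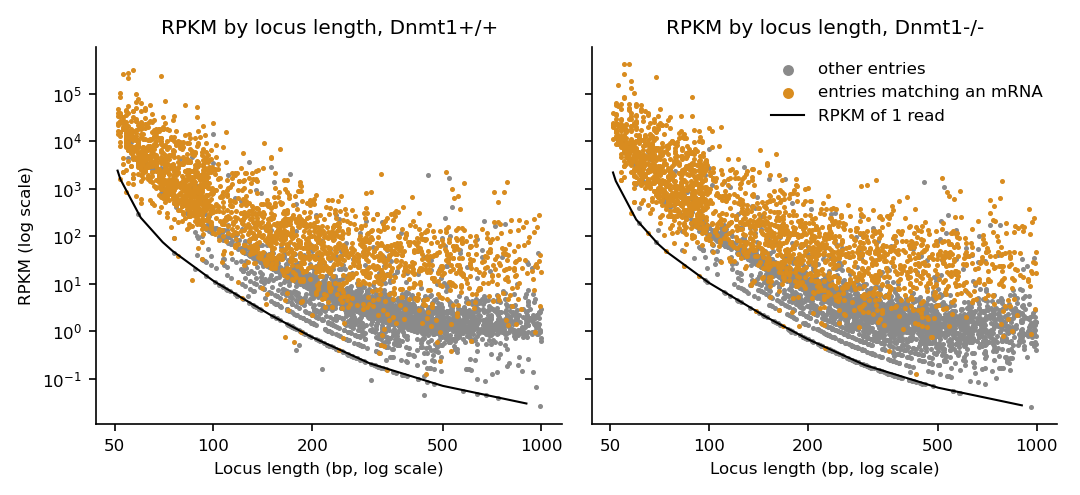
RPKM of each short unannotated entry (log axis) against its locus length in bp (log axis), in Dnmt1+/+ (left) and Dnmt1-/- (right). Orange points are entries whose sequence matches an mRNA, grey points are the other entries, the black line is the RPKM of 1 read, and entries listed at 0 are not drawn. The points fall with length alongside the 1-read line, from a median of 4989 RPKM at 50 to 74 bp to 1.81 RPKM at 500 to under 1000 bp in Dnmt1+/+.

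The short entries held 83.8% of all RPKM summed over entries with status OK in Dnmt1+/+ and 86.0% in Dnmt1-/-. The 938 entries under 100 bp alone held 79.4% and 81.8% of that sum, and the 4467 entries of 100 bp or more held 4.43% and 4.19%. Read equivalents were distributed the other way. Entries under 100 bp held 7.70% of the 936200 read equivalents of all short entries in Dnmt1+/+ and 8.32% of 961043 in Dnmt1-/-, whereas the 830 entries of 500 to under 1000 bp held 53.8% and 52.3% of the reads and 0.326% and 0.274% of the summed RPKM. When RPKM was multiplied by locus length, the short entries held 1.39% and 1.26% of the total over entries with status OK. This is not a share of reads. Locus length runs from start to end, with the introns of named genes included, whereas RPKM rests on an effective length.

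**Figure D2:**
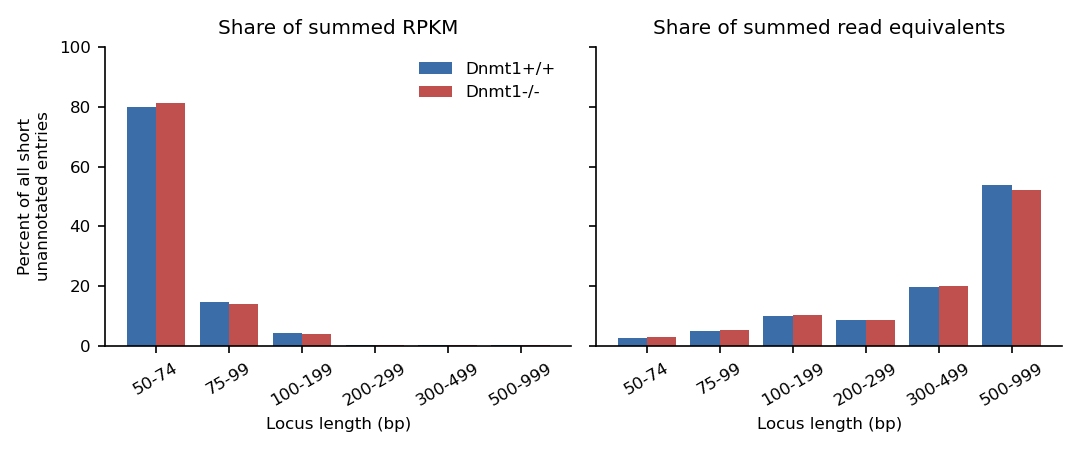
Share of summed RPKM (left) and of summed read equivalents (right) held by each class of locus length, in percent of all short unannotated entries. Blue bars are Dnmt1+/+ and red bars are Dnmt1-/-, 1 library each. Entries of 50 to 74 bp hold 79.9% and 81.2% of the RPKM and 2.83% and 3.12% of the reads.

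By sequence and position the 5405 entries fell into 5 classes. For 2150 entries (39.8%) at least 80% of the length matched a GENCODE protein-coding mRNA at 80% identity or more, outside any annotated exon other than that of a pseudogene, and these are called mRNA copies. A further 687 entries overlapped an annotated exon, 400 lay in an intron without such a match, 2147 were intergenic without such a match, and 21 overlapped a pseudogene exon without such a match. mRNA copies were the shortest class, with a median of 145 bp against 293 bp for intergenic and 300 bp for intronic entries. They made up 94.7% of the entries of 50 to 74 bp, 85.1% of those of 75 to 99 bp, 43.8% of those of 100 to under 200 bp, and 25.1%, 22.2% and 24.9% of the 3 longer classes. They held 97.4% of the summed RPKM of short entries in Dnmt1+/+ and 97.7% in Dnmt1-/-, and 82.0% and 83.8% of the read equivalents. Intergenic entries held 5.20% and 5.62% of the read equivalents, with medians of 11 and 12 per entry against 67 and 68.3 for mRNA copies. In 56.9% of the mRNA copies the read number of at least 1 library was not whole, against 13.6% of the intergenic and 9% of the intronic entries.

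The 2150 mRNA copies matched 1052 genes. Of the copies, 635 overlapped a GENCODE pseudogene, 52 lay inside another gene and 1463 were outside every GENCODE gene. For 89.4% of them only 1 gene gave a match, and 97.2% overlapped its coding sequence. The median identity to the mRNA was 95.1%. By identity, 93 copies were under 90%, 943 were from 90% to under 95%, 859 were from 95% to under 98%, 229 were from 98% to under 100%, and 26 were identical. Matched genes were at a median of 28.5 RPKM in Dnmt1+/+ and 27.8 in Dnmt1-/-, and all named autosomal entries that reached 1 RPKM in either library were at 11.4 and 10.5. A single copy entry was found for 561 genes, 75 genes had 5 or more, and Cnot1, which encodes the scaffold of the CCR4-NOT deadenylase, had 13, all on 1 chromosome. Kif11, a mitotic kinesin, and Vdac1, the mitochondrial outer membrane channel, had 11 entries each, those of Vdac1 on 4 chromosomes. Members of gene families that are not processed pseudogenes also met the match criterion, among them entries matching Lilrb3, Zfp772 and Sp110.

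Nearly every mRNA copy crossed an exon boundary of the transcript it matched. Of 431 mRNA copies of 50 to 74 bp, 98.1% held at least 1 exon junction of the matched transcript, whereas 26.4% of all windows of the same length in the same transcripts did. For 75 to 99 bp these shares were 95.4% and 33.4%, for 100 to under 200 bp 93.2% and 48.7%, for 200 to under 300 bp 96.9% and 59.96%, for 300 to under 500 bp 94.6% and 61.03%, and for 500 to under 1000 bp 98.1% and 75.1%. In copies of 75 to 99 bp the junction lay a median of 4 bp from the middle of the matched stretch, and in copies of 50 to 74 bp 12.5 bp from it. Only 36 of the 2150 copies matched a transcript with a single exon.

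**Figure D3:**
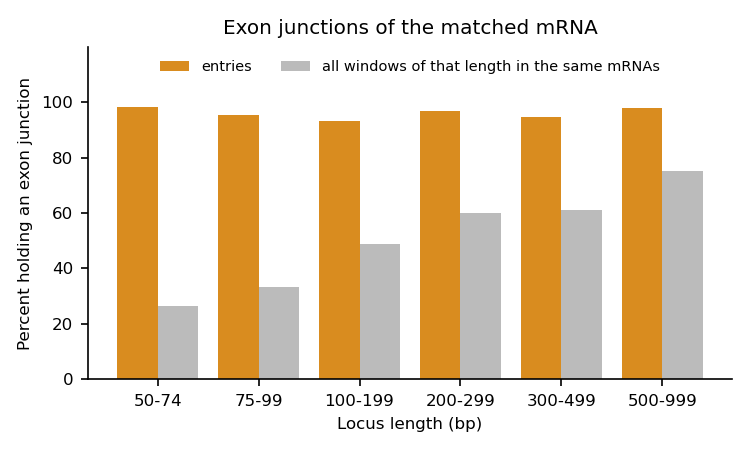
Percent of mRNA copies that hold at least 1 exon junction of the matched transcript (orange), by locus length in bp, beside the percent of all windows of the same length in the same transcripts that hold one (grey). The orange bars lie between 93.2% and 98.1% in every class, and the grey bars between 26.4% and 75.1%.

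The 10 entries with the highest mean RPKM were mRNA copies of 52 to 69 bp, and each crossed 1 exon junction. They held 20.1% of the RPKM of all entries with status OK in Dnmt1+/+ and 22.6% in Dnmt1-/-, but 0.581% and 0.711% of the read equivalents of the short entries. The highest was the copy of Cct7, a subunit of the CCT chaperonin, at chr1:20811795-20811851. It was at 318418 RPKM in Dnmt1+/+ and 423836 in Dnmt1-/-, from 759 and 1105 read equivalents, while Cct7 itself was at 150 and 167 RPKM. A copy of the actin-binding profilin gene Pfn1 on chromosome 18 was at 220121 and 416795 RPKM from 338 and 700.0 read equivalents, 1.89 times higher in Dnmt1-/-, and Pfn1 itself was at 519 and 865 RPKM. The copy of ribosomal protein gene Rpl4 at chr9:110904045-110904099 was at 274825 and 261986 RPKM from 422 and 440.0 read equivalents. The Rpl4 copy thus had more reads but a lower RPKM in Dnmt1-/-, where 1 read is worth less. A pair of copies of Eef2, the translation elongation factor, lay close together at chr1:110275117-110275185 and chr1:110275795-110275847. The first was at 234293 and 223530 RPKM from 2827 and 2950 read equivalents, and the second, 53 bp long, was at 259769 and 153495 RPKM from 229 and 148. Copies of the initiation factor genes Eif3b and Eif4g1 were 1.94 and 1.95 times higher in Dnmt1-/-, and the genes themselves went from 143 to 251 and from 195 to 292 RPKM. The remaining 3 were a second Cct7 copy, a copy of the chaperone gene Hsp90ab1 and a copy of the pyrophosphatase gene Ppa1, with 40 to 390.0 read equivalents per library.

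The entries with the most reads were longer. A 785-bp copy of Naca, which encodes a subunit of the nascent polypeptide-associated complex, at chr12:98160474-98161258 in the pseudogene Gm6863 held 37969 and 43797 read equivalents at 1368 and 1443 RPKM. It matched the mRNA at 99.9% identity across 6 exon junctions. A copy of Rpl23 at chr6:66825254-66825766 held 33391 and 27368, a copy of Rpl10a at chr1:65040438-65041208 held 23431 and 19185, a copy of Rps10 at chr3:95426159-95426739 held 23988 and 18074, and a copy of Rps9 at chr7:148363702-148364420 held 21425 and 15706. These 4 copies of ribosomal protein mRNAs were lower in Dnmt1-/-, by 0.42 to 0.58 on the log2 scale. The genes Rpl23, Rpl10a, Rps10 and Rps9 differed by -0.29, -0.29, -0.67 and -0.53. A pair on annotated exons had similar values, 25717 and 18233 read equivalents on the gene model Gm9843 at chr16:76403437-76403958 and 23077 and 18154 at chr5:115553186-115553637 on Gm13826, which matches Rpl37 mRNA. Among copies higher in Dnmt1-/-, the 946-bp copy of Mprip, which encodes a partner of myosin phosphatase, held 8379 and 14457. In all, 36 entries matched an mRNA of 27 ribosomal protein genes and held 19.2% of the reads of mRNA copies in Dnmt1+/+ and 14.7% in Dnmt1-/-. Their median log2 difference was -0.43, with 1 entry of the 36 more than 2-fold higher and 7 lower, beside 13.0% and 17.5% of all entries with status OK, so that the share lower was near that of all entries.

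The question for the whole set was how far the RPKM of an entry differed between the genotypes. Changes are given as the Dnmt1-/- minus the Dnmt1+/+ value of log2(RPKM + 0.1), among entries with at least 1 RPKM in either library, which 5331 of the 5405 reached and 74 did not. More than 2-fold higher in Dnmt1-/- were 1198 entries (22.5%), against 13.0% of all entries with status OK that passed the same filter, and more than 2-fold lower were 1343 (25.2%), against 17.5% of all. Among named autosomal entries these shares were 8.41% and 10.4%. The median difference was -0.13, and over all entries that passed it was -0.16. Of the 2541 entries past 2-fold, 1381 held fewer than 20 read equivalents over both libraries, 690 were listed at 0 in 1 library, in 491 cases Dnmt1+/+. Among the 3780 entries with at least 20 read equivalents, 495 (13.1%) were higher and 665 (17.6%) lower. These shares were near the 13.0% and 17.5% of all entries, to which no limit on reads was applied. All but 6 of the 5405 entries held 10 or more read equivalents over both libraries after rounding, so an entry listed at 0 in 1 library nearly always held at least that many in the other. A difference past 2-fold was thus often a difference of few reads.

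The classes differed in these shares. Of 2148 mRNA copies 7.64% were higher and 11.96% lower, with a median of -0.12. Of 2102 intergenic entries 37.3% were higher and 32.8% lower, of 387 intronic entries 24.8% and 46.5%, and of 673 entries on annotated exons 22.7% and 31.2%. With at least 20 read equivalents the shares higher and lower were 5.81% and 9.51% for 1997 mRNA copies, 25.7% and 25.4% for 1113 intergenic entries, 17.5% and 40.1% for 212 intronic entries, and 12.7% and 23.2% for 440 entries on exons. Of these 4 classes mRNA copies had the lowest shares in both directions. Among entries without a match or an annotated exon, those higher, those lower and those within 2-fold had a median GC content of 47.4%, 46.8% and 47.9% and a median of 1.13, 1.30 and 1.31 CpG per 100 bp.

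mRNA copies were set beside the genes they matched. For 2038 copies of 978 genes with at least 1 RPKM in either library the Pearson correlation of the log2 differences was 0.63 and the Spearman correlation 0.63 across entries, and for the 1179 with at least 100 read equivalents they were 0.89 and 0.78. Entries are not independent replicates, copies of 1 gene share it, and a copy and its gene can share reads. The median distance between the difference of a copy and that of its gene was 0.30 on the log2 scale, and 0.16 for the 491 copies with at least 500 read equivalents. Past 2-fold, 47 copies and their genes were both higher, 52 were both lower, and in 0 pairs did they go opposite ways. The remaining 86 copies that were higher and 182 that were lower matched a gene within 2-fold, and 50 of these 268 held at least 100 read equivalents.

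**Figure D4:**
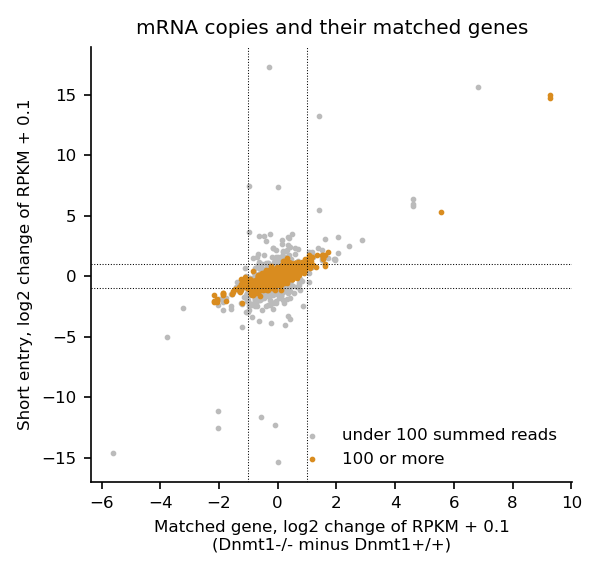
Difference between the libraries on the log2(RPKM + 0.1) scale, Dnmt1-/- minus Dnmt1+/+, for 2038 mRNA copies (vertical) and the genes they match (horizontal). Orange points are copies with at least 100 read equivalents over both libraries, grey points those with fewer, and dotted lines mark 2-fold. Points past 2-fold on both axes lie in the lower left (52) and upper right (47) corners only.

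The copies with most reads among those higher together with their gene, and genes with several such copies, were named after their values were seen. The copy of thymidine kinase gene Tk1 at chr8:129000118-129000705 went from 79.3 to 260.2 RPKM, or 1453 to 5218 read equivalents, and Tk1 itself from 12.9 to 33.0 RPKM. A copy of Rrm2, the small subunit of ribonucleotide reductase, went from 49.6 to 116 RPKM and its gene from 44.9 to 99.4. Of 4 copy entries of the mitotic kinase gene Aurkb on 1 chromosome 3 were more than 2-fold higher, with 116 and 356 read equivalents in all, and the gene went from 30.4 to 63.4 RPKM. All 4 entries of Ctsb, a lysosomal protease, were higher by 1.46 to 1.74 on the log2 scale, and the gene was at 66.8 and 196 RPKM. A copy of the creatine kinase gene Ckb went from 15.2 to 49.7 RPKM.

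Lower copies matched other genes. All 7 entries of Rb1cc1, which acts at the start of autophagy, were lower, by 1.39 to 2.80 on the log2 scale, with 1155 read equivalents in Dnmt1+/+ and 438 in Dnmt1-/-, and the gene went from 32.0 to 8.72 RPKM. A pair of entries matching the sorbitol dehydrogenase gene Sord on chromosome 1 were at 104 and 14.9 RPKM in Dnmt1+/+ and at 35.5 and 3.48 in Dnmt1-/-, beside 17.8 and 3.84 for Sord. The copy of Fabp5, a fatty acid-binding protein, at chr2:119703860-119703947 was at 11880 and 2715 RPKM from 567 and 142 read equivalents, and a copy of the alanine transaminase gene Gpt2 was at 64.0 and 14.8 RPKM. All 3 entries matching Snrpn, a paternally expressed imprinted gene, lay on 1 chromosome and held 358 read equivalents in Dnmt1+/+ and 1.5 in Dnmt1-/-. No entry with status OK carried Snrpn as its only symbol, so no value of the gene was set beside them.

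Ranked by the difference of log2(RPKM + 0.1), the first 2 entries inside a gene were the Tuba3b copies at chr9:75223328-75223422 and chr9:75223716-75223802, within Mapk6. Tuba3b encodes an alpha-tubulin known from the testis. Both entries were listed at 0 in Dnmt1+/+ and held 203 and 158 read equivalents in Dnmt1-/-, at 2702 and 3214 RPKM. Against a floor of 3 reads per library, with the Dnmt1-/- counts taken as exact, that is 62.0-fold and 48.3-fold higher. Tuba3b itself went from 0.0368 to 85.5 RPKM, and Tuba3a can share its reads.

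Whether entries inside named loci behaved like those outside could not be asked of the table's own loci, because 0 of the 5405 entries overlapped a named locus of the table. The GENCODE annotation of the same build was used instead. Counting any overlap with a gene as inside, it placed 1795 entries inside and 3610 outside, and 1494 of the 1795 lay wholly within a gene. Of 1768 entries inside that reached 1 RPKM, 17.6% were more than 2-fold higher and 27.1% lower, and of 3563 outside, 24.9% were higher and 24.2% lower. This log2 scale ranks very short entries first, since 1 read there is worth a high RPKM, so its order is not one of fold changes in reads. The 8 largest positive differences on it outside genes were in entries of 52 to 85 bp. All were listed at 0 in Dnmt1+/+ with 10 to 19 read equivalents in Dnmt1-/-. Against a floor of 3 reads that is 3.05-fold to 5.79-fold higher. The exact Poisson 95% interval reaches up to 3.69 reads for a 0 and down to 4.80 for 10 reads, so these folds are not lower bounds. The first of these 8 entries, at chr13:39853075-39853126, stood at 16100 RPKM from 11 read equivalents and matched Mettl11a, at 41.2 and 33.3 RPKM. The second matched Nlrp4c, an NLRP-family gene known from oocytes, which was listed at 0 in Dnmt1+/+ and at 11.2 RPKM in Dnmt1-/-. The 8 largest negative differences on this scale outside genes were in entries 68 to 104 bp long. They were listed at 0 in Dnmt1-/- with 10 to 27 read equivalents in Dnmt1+/+, or 3.65-fold to 9.84-fold lower against the same floor. The first 2 were a copy of Isyna1 at chr17:54647324-54647391, from 2470 RPKM, and a copy of Tardbp at chr9:54678322-54678411, from 507 RPKM, with 27 read equivalents each. Isyna1 itself, which encodes inositol-3-phosphate synthase, went from 13.5 to 0.18 RPKM, and Tardbp was at 77.5 and 72.6 RPKM. On the same scale the 8 largest negative differences inside genes rested on 10 to 21 read equivalents, and 2 of them matched Scube3, whose 3 copies on chromosome 11 went from 82 to 10 read equivalents while the gene went from 13.3 to 3.16 RPKM. Among the 8 largest positive differences inside genes on it, an intronic entry of 102 bp in the Pira5 gene at chr7:3712465-3712566, in a cluster of paired immunoglobulin-like receptor genes with near-identical members, was listed at 0 in Dnmt1+/+ and held 122 read equivalents in Dnmt1-/-. Its reads could come from other members of the family. Longer entries, named after their values were seen, differed more in reads. The intergenic entry at chr6:130911650-130912569 was listed at 0 in Dnmt1+/+ and held 208 read equivalents in Dnmt1-/-. The intronic entry at chr15:92196355-92197181 in the noncoding gene Gm16629 went from 0 to 187. Against the same floor these were 63.2-fold and 57.0-fold higher. In the other direction, the intergenic entry at chr19:20467731-20468687 went from 169 read equivalents to 1.

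Entries inside genes without an mRNA match were compared with the entry of the gene that holds them. For 461 entries in 286 genes with at least 1 RPKM in either library the Pearson correlation of the log2 differences was 0.53 and the Spearman correlation 0.48 across entries. For 317 entries on exons Pearson's r was 0.61, and for 143 in introns 0.36. Both were higher past 2-fold in 28 pairs, both lower in 41, and they went opposite ways in 7. The genes with the most such entries were the gene models Gm20388 with 24, of which 5 were higher and 13 lower, and Gm13483 with 13, of which 11 were lower and 0 higher. Gm16576 held 11 and Gm15800 held 10. None of these gene models had a value of its own to set beside its entries. Pura, which encodes a nucleic acid-binding protein, held 10 entries on its exons with a median difference of -0.75, while Pura itself was at 8.40 and 8.86 RPKM. Zbtb20, a transcriptional repressor gene, held 9 with a median of -0.27, and Pvt1, a noncoding gene next to Myc, held 8 intronic entries with 96 and 228 read equivalents, 6 of them higher. Cux1 also held 8, of which 0 were past 2-fold, while Cux1 itself was at 47.0 and 80.4 RPKM.

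Distance to the nearest named locus of the table went with the direction of the difference among the entries without a match or an annotated exon. Within 1 kb upstream of a named locus 430 entries had a median log2 difference of -0.69, with 20.9% more than 2-fold higher and 41.6% lower. From 1 to 5 kb upstream the median of 329 entries was -0.87, and from 1 to 5 kb downstream that of 530 was -0.12. At 5 to 20 kb on either side 30.6% of 523 entries were higher and 40.3% lower. At 20 to 100 kb 58.0% of 379 entries were higher and 22.4% lower, with a median of 2.06 that was 0.41 among the 192 of them with at least 20 read equivalents. At 100 kb or more 68.3% of 221 entries were higher and 14.0% lower, with a median of 3.95. Of 224 entries at 100 kb or more, 114 were listed at 0 in Dnmt1+/+ and 12 in Dnmt1-/-. Of 500 within 1 kb, 30 and 33 were. An entry listed at 0 in 1 library can have passed the limit of 1 RPKM only through the other library. The shares and medians by distance and by chromosome include such entries and so rest in part on this selection. With at least 20 read equivalents the shares higher and lower were 53.9% and 11.8% for 102 entries at 100 kb or more and 12.8% and 29.8% for 289 entries within 1 kb. With 1 entry kept per group of entries linked by gaps of at most 10 kb they were 60.9% and 17.2% for 128 entries at 100 kb or more and 21.0% and 40.1% for 434 within 1 kb. All 19 autosomes held such distant entries, at most 25 on 1 chromosome, and on 18 of them their median difference was above 0. Of the 221, 7 matched another short entry in sequence. They were not compared with repeats or with the rest of the genome, so this count cannot tell whether they are repeats. Summed over all entries at 100 kb or more, read equivalents went from 7734 to 9901, a sum led by a few entries that were not more than 2-fold higher, among them chr5:80067140-80067455 with 1603 and 909 read equivalents and chr3:57766643-57766795 with 690 and 888.

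Among mRNA copies at the same distances, 9.02% of 732 at 100 kb or more were higher and 12.02% lower, with a median of -0.12, and at 20 to 100 kb 7.35% of 735 were higher and 12.5% lower, with a median of -0.14. Nearer named loci the medians of the copies were -0.10 at 5 to 20 kb, -0.13 at 1 to 5 kb and 0.37 for the 14 within 1 kb. Median GC content was 42.9% at 100 kb or more and 52.3% within 1 kb for entries without a match, with 0.839 and 3.22 CpG per 100 bp.

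**Figure D5:**
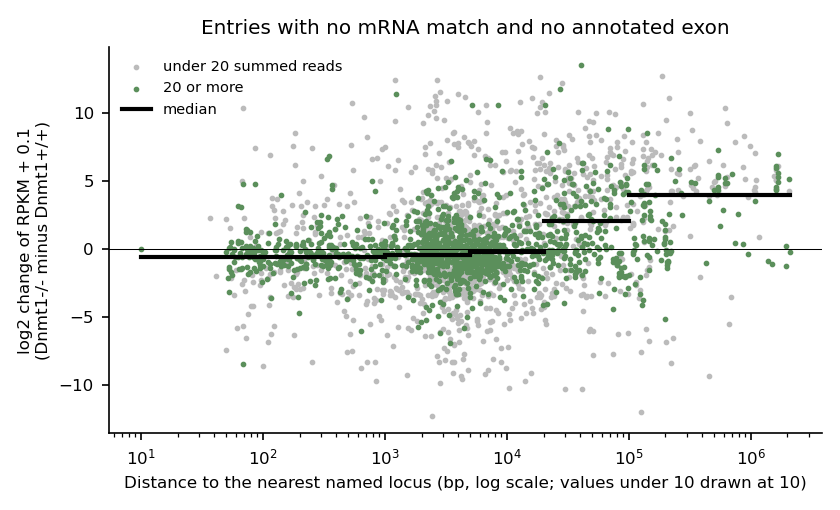
Difference between the libraries on the log2(RPKM + 0.1) scale, Dnmt1-/- minus Dnmt1+/+, of 2489 entries with neither an mRNA match nor an annotated exon, against their distance to the nearest named locus in bp (log axis). Green points hold at least 20 read equivalents over both libraries, grey points fewer, and black bars are the medians of 5 distance classes. The medians are -0.61, -0.44 and -0.27 up to 20 kb, 2.06 from 20 to 100 kb and 3.95 beyond, and with at least 20 read equivalents the last 2 are 0.41 and 2.07. Entries listed at 0 in 1 library are included and were kept through the other library alone.

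Neighbouring entries were also described as groups, since they may belong to 1 transcript. Linking entries of this kind across gaps of at most 10 kb gave 1477 groups, 983 of them a single entry and 67 of 5 or more. Of the 67, 10 had every entry more than 2-fold higher, 9 had every entry lower, and 17 held entries of both directions. At chr14:113694385-113701960, 1612027 bp from Slitrk5 as the nearest named locus, 9 of 9 entries were higher and held 0 read equivalents in Dnmt1+/+ and 236 in Dnmt1-/-. At chr3:6753476-6764304 6 of 6 went from 0 to 138, at chr2:98546177-98554244 5 of 5 from 0 to 95, and at chr10:72742448-72746478, 538136 bp from Pcdh15, 4 of 4 from 0 to 258. At chr9:41642267-41646129, 130442 bp from Sorl1, 6 of 6 went from 26 to 265 while Sorl1 itself was at 2.02 and 0.785 RPKM. At chr9:98683069-98695447, 47558 bp from Prr23a, 7 of 7 went from 0 to 119. Other distant groups did not differ this way. At chr5:64985733-64993383, 201378 bp from Klf3, 0 of 4 entries were higher and 2 lower, at chr2:92595094-92603671 1 of 4 was higher and 1 lower, and at chr9:43737217-43746104 2 of 6 were higher and 1 lower.

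Other groups lay nearer to a named gene and were set beside it. Downstream of Hand2, a transcription factor gene of heart and limb, 5 of 5 entries at chr8:59810599-59835152 went from 0 to 148 read equivalents, and Hand2 from 0 to 13.7 RPKM. At 63307 bp from Thbs2, which encodes a matrix thrombospondin, 5 of 5 at chr17:14731467-14739199 went from 6 to 99, and Thbs2 from 10.02 to 175 RPKM. Downstream of Metrnl 10 of 11 entries at chr11:121580978-121590142 were higher, and Metrnl went from 11.0 to 32.6 RPKM. In the other direction, 6 of 6 entries at chr4:18048935-18052469 downstream of Mmp16, a membrane metalloprotease gene, went from 252 to 4 read equivalents and Mmp16 from 6.82 to 0.581 RPKM, and 8 of 8 at chr9:119344909-119349260 downstream of the activin receptor gene Acvr2b went from 194 to 16 while Acvr2b went from 1.01 to 0.127 RPKM. Downstream of the kinase gene Srpk2 15 of 18 entries at chr5:22890783-22937521 were lower, and Srpk2 went from 16.6 to 9.25 RPKM. The gene differed less or the other way beside 8 of 8 lower entries at chr2:50156490-50164874 upstream of Mmadhc, from 147 to 29.3 read equivalents, where Mmadhc was at 74.5 and 61.9 RPKM, and 9 of 9 lower entries at chr15:32709496-32724312, 83399 bp from Sema5a, which was at 1.05 and 1.51 RPKM.

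The Hox clusters, whose genes set position along the body axis and are silenced or active by cluster segment in a given fibroblast, held 39 short entries. The first sequence below is a distant entry of the Sorl1 group and the second an entry between Hoxc12 and Hoxc11, both in mm9 on the plus strand with CpG in capitals. They were chosen after their values were seen and are not typical, since the 18 HoxC entries held from 0 to 8.03 CpG per 100 bp and distant entries a median of 0.839.

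Distant entry, chr9:41643357-41643639, plus strand: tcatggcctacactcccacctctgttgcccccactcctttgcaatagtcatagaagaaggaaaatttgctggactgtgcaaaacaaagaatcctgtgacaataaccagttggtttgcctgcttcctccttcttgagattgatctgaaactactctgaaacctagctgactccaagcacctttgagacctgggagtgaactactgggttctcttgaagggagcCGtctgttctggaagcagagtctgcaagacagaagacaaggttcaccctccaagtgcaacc
HoxC entry, chr15:102780818-102780979, plus strand: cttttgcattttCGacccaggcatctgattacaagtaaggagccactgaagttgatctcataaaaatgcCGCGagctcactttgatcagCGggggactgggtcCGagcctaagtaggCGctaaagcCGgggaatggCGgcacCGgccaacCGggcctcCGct

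The first holds 1 CpG in 283 bp and went from 5 to 52 read equivalents, or from 1.23 to 11.7 RPKM. The second holds 11 CpG in 162 bp and went from 0 to 14 read equivalents, or from 0 to 20.6 RPKM.

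Of all entries with status OK that reached 1 RPKM in either library, 13.0% were more than 2-fold higher and 17.5% lower. In the HoxC cluster 18 of 18 entries were more than 2-fold higher in Dnmt1-/-, with 30 read equivalents in Dnmt1+/+ and 503 in Dnmt1-/-. Between Hoxc12 and Hoxc10 the 9 entries at chr15:102773384-102796790 were listed at 0 in Dnmt1+/+ except for 1, on an exon of the antisense transcript Gm16258, which held 2 read equivalents there and 90 in Dnmt1-/-. Around Hoxc4 an intronic entry at chr15:102861565-102862416 went from 9.01 to 89.1 read equivalents, and the weakest difference of the cluster, 2.83-fold, was on an exon of Hoxc6. In the HoxB cluster 7 of 7 entries were lower, all of them between chr11:96128670 and 96143101 around Hoxb9 and Hoxb8, with 145 read equivalents in Dnmt1+/+ and 0 in Dnmt1-/-. In the HoxA cluster 5 of 6 were higher, all 5 beside Hoxa11as and Hoxa13 and from 0 to 105 read equivalents in all, and 1 on Hoxa2 was lower, from 17 to 0. In the HoxD cluster 6 of 8 were higher, all 6 beside Hoxd11 and Hoxd10 and listed at 0 in Dnmt1+/+, while of 2 near Hoxd8 1 went from 10 to 1 read equivalents and the other was at 29 and 26. Direction thus differed between HoxB and HoxC, and within HoxA and HoxD between the ends of the cluster. The paper states that Hox patterns of fibroblasts depend on their place in the body. It could not exclude that such a difference in origin enhanced the Hox changes of the Dnmt1-/- line, although it also reports raised Hox genes in Dnmt1+/+ MEFs given 5-aza-dC. In these 2 libraries genotype and origin cannot be told apart. The nearest Hox genes had log2 differences of 5.38 for Hoxc12, 6.16 for Hoxc11, 4.12 for Hoxc10, -0.96 for Hoxc8, -5.59 for Hoxb9, -3.76 for Hoxb8, 6.74 for Hoxa11as and -2.28 for Hoxa2.

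Of 36 imprinted and noncoding host genes on a list, 28 were found in the annotation, and 6 short entries lay inside them. A pair on exons of the paternally expressed Peg3 went from 147 to 10.3 and from 243 to 9.75 read equivalents, or from 16.8 to 1.07 and from 19.9 to 0.729 RPKM. Of 3 on Neat1, the scaffold RNA of paraspeckles, the entry at chr19:5831816-5831998 went from 13 to 0 read equivalents, 1 went from 10 to 2, and 1 was at 10 and 9. The entry on Gas5, a snoRNA host gene, was at 13 and 18. No entry lay inside another gene of the list. None of the short entries matched an annotated small RNA gene over 80% of the entry's own length, a limit that a much shorter gene cannot meet. By position, 2 entries overlapped an exon of an annotated snRNA and 1 that of a snoRNA. The sequence of a mature miRNA in RefSeq was held by 9, 8 of them miR-3473a or miR-3473b and 1 miR-706.

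Entries on either side of the length limit were as follows. The 3 longest entries under it, of 995 and 996 bp, were at 0.609 to 2.94 RPKM in Dnmt1+/+ and 0.412 to 0.798 in Dnmt1-/-. The 3 shortest unannotated entries above it, of 1004 to 1008 bp, were at 1.18 to 18.8 and 0.525 to 14.6. Among 2232 unannotated autosomal entries of 1 kb or more that reached 1 RPKM, 13.5% were more than 2-fold higher and 31.6% lower, with a median of -0.45, against 22.5% and 25.2% of the short ones.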

How the data were processed

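Strand-specific mRNA-seq of 1 Dnmt1+/+ and 1 Dnmt1-/- MEF library was analysed, read from 1 end for 50 bases. Alignment to mm9 was done by TopHat and transcript assembly by Cufflinks, and the authors deposited the RPKM values that Cuffdiff gave, 1 column per library. Program versions are not given in the sources used here. Their columns of fold changes and p-values were not used. Whether reads with several alignments were shared out is not given either, so values of near-identical copies are uncertain, as are those of genes overlapping on opposite strands.

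The log2 difference was taken on the log2(RPKM + 0.1) scale for entries with at least 1 RPKM in either library. Adding 0.1 shrinks differences between values near 0.1 RPKM. In Dnmt1+/+, however, 1 read was worth 1601 RPKM at 52 bp and 0.747 RPKM at 200 bp. A 0 against a few reads in a short entry therefore gave a large difference on this scale. Read equivalents assume an unspliced entry. A fold against a library listed at 0 used a floor of 3 reads per library. Sequences came from NCBIM37, the assembly of mm9, and were matched to GENCODE vM1 protein-coding transcripts with blastn 2.17.0 (E-value of 1e-05 or less, at least 80% identity over at least 80% of the entry). Where several transcripts matched, the best-scoring one was taken. Overlaps were computed with bedtools 2.31.1. A gene with several entries was represented by the one with the highest RPKM. Coordinates are 1-based. The genome was not repeat-masked and repeats were not named. The steps were tested on simulated data. Members, gene lists and tests were chosen with earlier results of these data known. The entries named were the 10 of highest mean RPKM, the 8 largest rises and falls inside and outside genes, the genes holding most entries, entries of the Hox clusters and of a list of imprinted and noncoding hosts, and those beside the length limit. Entries with the most reads, groups of neighbours and copies named with their genes were chosen after their values were seen.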

Additional observations from a re-analysis of the deposited data

How the results depend on the processing

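With 1 library per genotype no replicate could be left out. No paired analysis was possible because each genotype has a single library. The 2541 short entries past 2-fold became 1478 at a 4-fold limit, where 829 were higher and 649 lower (56.1% higher against 47.1% at 2-fold), and, in an alternative added after the data were seen, 1160 with at least 20 read equivalents. A 4-fold limit gives fewer calls by its own strictness. With at least 20 read equivalents the shares were lower too, at 13.1% higher and 17.6% lower of 3780 entries. They were 22.5% and 25.2% of 5331 without that limit. Of all entries with status OK, to which no limit on reads was applied, 13.0% were higher and 17.5% lower. Under the other 10 alternatives the count stayed between 2120 and 3392. Subtracting the median of all kept entries, -0.16, turned the median difference from -0.13 to 0.036, so its sign depends on the scaling, and the share of calls that were higher went from 47.1% to 52.8%. By the table's own loci 0 entries were inside, and of 1469 that lay wholly inside a gene of the reference annotation 716 were past 2-fold, a smaller set than the entries with any overlap. The share of summed RPKM, 83.8% in Dnmt1+/+ and 86.0% in Dnmt1-/-, was 4.43% and 4.19% without entries under 100 bp. It was 1.39% and 1.26% of RPKM times locus length, which counts introns of named genes and is not a share of reads. In alternatives added after the data were seen, the median difference at 100 kb or more from a named locus, 3.95, was 2.07 with at least 20 read equivalents, 3.39 with 1 entry per group, 3.33 with 1 read added to each library, 1.54 with a pseudocount of 1 and 4.12 after centring. Within 1 kb upstream, -0.69 became -0.44 with at least 20 read equivalents, -0.45 with a pseudocount of 1 and -0.52 after centring. Many entries rest on about 10 reads, and a value of 0 allows up to 3.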

Other observations

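Short unannotated entries on the X chromosome were left out of the set described above. There were 361 of them, with a median length of 159 bp. Of the 358 that reached 1 RPKM in either library, 35 were more than 2-fold higher and 70 lower in Dnmt1-/-, beside 13.0% and 17.5% of all entries with status OK, with a median log2 difference of -0.10.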
